A study of Mus musculus with 6 samples.

Results

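In the open chromatin of mouse embryonic fibroblasts, 1112 accessible intervals each held the outermost base of 2 or more different protein-coding genes. Most of them lay over 2 gene starts on opposite strands. The 1112 intervals were chosen by position alone, on chromosomes 1 to 19. Every interval narrower than 2000 bp that covers the first or last base of at least 2 protein-coding genes was taken. They made up 0.355% of the 313229 intervals of that size on those chromosomes (95% Wilson interval 0.335 to 0.376%, counting error only) and came from a set of 323483 intervals in all. Of the 20665 protein-coding genes on these chromosomes, 2239 (10.8%) had an end in such a joining interval.

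The intervals came from ATAC-seq, in which a transposase cuts and tags accessible DNA, on cells of the strain M2-rtTA x TetO-Myf6, heterozygous for both alleles, so that doxycycline switches on the muscle regulator Myf6 through the reverse transactivator. The culture medium contained bFGF (10 ng/mL) in every group and the treatment lasted 24 h. In the medium group nothing else was given, in the Myf6 group doxycycline (2 µg/mL) was added, and in the Myf6 group with F/R/C doxycycline was combined with the small molecules forskolin (5 µM), RepSox (5 µM) and CHIR99021 (3 µM), with 2 libraries in each of the 3 groups. The deposited table joins all 6 libraries into a single interval set and holds no value for any library, so differences between the groups were not analysed here, depth is unknown, and values carry no error between replicates. The labelled cell type was checked against marker genes, beside the 62.2% of all 20665 protein-coding genes that had an interval over an end. Of the fibroblast markers 11 of 12 had one (Postn had none), against none of the blood cell markers Ptprc, Adgre1, Tyrobp and Cd3e, 2 of 4 epithelial markers (Krt5 and Krt8 had none) and 2 of 4 endothelial markers (Pecam1 and Vwf had none). The last 3 lists hold only 4 genes each, and the epithelial and endothelial shares are near that of all genes.

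Genes that lie head to head on opposite strands, with their starts close together, share the DNA between those starts as a bidirectional promoter. Such promoters are known for CpG islands and for the scarcity of TATA boxes, and many serve housekeeping genes of DNA repair, mitochondria and chaperones. Genes can also lie in tandem, where the 3' end of one comes just before the start of the next, or tail to tail, where 2 convergent genes end beside each other. A joining interval can therefore stand for a shared promoter, for a promoter beside another gene's tail, or for accessible DNA over a pair of tails.

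The following windows show what joined starts look like in sequence. They were taken from RefSeq (GRCm38.p6) and run from 250 bases before to 50 bases after an annotated start of the gene named first, 5' to 3' on that gene's strand. Capitals mark the stretch from that start to the start of the partner, as far as it falls inside the window. The Hspd1 and Atm windows stand for textbook pairs, Mrps12 and Lias for ribosomal and mitochondrial genes, H2ac12 for a histone pair, Ears2 for starts on adjacent bases, and Mrps6 for 2 starts on the same strand.
Hspd1 beside Hspe1, chr1:55088194-55088493, minus strand: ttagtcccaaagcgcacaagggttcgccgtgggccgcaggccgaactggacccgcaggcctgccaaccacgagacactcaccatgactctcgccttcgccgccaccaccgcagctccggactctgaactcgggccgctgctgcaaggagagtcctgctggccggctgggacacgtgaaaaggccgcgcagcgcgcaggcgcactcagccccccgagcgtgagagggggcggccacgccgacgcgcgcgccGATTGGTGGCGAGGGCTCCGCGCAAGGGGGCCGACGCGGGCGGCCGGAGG
Atm beside Npat, chr9:53536622-53536921, minus strand: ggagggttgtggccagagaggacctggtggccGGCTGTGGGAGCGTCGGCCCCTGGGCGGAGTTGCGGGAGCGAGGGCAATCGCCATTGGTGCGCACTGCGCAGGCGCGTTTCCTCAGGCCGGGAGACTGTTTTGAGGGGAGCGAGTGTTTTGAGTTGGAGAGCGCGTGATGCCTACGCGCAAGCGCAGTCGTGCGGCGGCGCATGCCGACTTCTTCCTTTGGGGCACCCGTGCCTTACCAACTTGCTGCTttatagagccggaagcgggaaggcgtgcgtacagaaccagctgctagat
Mrps12 beside Sars2, chr7:28741772-28742071, minus strand: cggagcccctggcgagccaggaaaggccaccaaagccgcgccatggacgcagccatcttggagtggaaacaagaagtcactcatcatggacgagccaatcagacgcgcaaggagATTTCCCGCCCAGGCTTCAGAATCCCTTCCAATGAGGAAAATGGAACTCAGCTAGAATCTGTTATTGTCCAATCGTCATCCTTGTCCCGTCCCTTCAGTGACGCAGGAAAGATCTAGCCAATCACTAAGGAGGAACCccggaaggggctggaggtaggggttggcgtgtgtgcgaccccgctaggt
H2ac12 beside H2bc12, chr13:22035594-22035893, minus strand: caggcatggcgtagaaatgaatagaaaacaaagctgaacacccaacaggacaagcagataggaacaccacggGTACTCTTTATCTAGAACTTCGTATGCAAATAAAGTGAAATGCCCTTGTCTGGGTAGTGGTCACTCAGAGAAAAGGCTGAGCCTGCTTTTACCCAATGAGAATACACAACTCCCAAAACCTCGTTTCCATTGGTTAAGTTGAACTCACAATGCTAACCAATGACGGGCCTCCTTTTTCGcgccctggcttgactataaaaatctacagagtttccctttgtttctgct
Ears2 beside Ubfd1, chr7:122067037-122067336, minus strand: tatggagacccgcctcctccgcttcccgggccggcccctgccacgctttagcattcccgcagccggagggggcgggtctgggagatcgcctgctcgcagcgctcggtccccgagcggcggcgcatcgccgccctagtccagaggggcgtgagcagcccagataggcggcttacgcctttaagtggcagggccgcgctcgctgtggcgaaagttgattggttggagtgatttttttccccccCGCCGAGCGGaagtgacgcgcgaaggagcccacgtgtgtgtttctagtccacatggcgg
Lias beside Rpl9, chr5:65391247-65391546, plus strand: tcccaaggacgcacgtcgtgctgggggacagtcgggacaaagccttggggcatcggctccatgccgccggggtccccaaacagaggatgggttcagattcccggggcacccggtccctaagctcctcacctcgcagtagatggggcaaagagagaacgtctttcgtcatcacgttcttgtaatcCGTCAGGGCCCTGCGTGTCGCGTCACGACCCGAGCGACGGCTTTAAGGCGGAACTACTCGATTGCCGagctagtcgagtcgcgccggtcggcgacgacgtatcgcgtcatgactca
Mrps6 beside Slc5a3, chr16:92058086-92058385, plus strand: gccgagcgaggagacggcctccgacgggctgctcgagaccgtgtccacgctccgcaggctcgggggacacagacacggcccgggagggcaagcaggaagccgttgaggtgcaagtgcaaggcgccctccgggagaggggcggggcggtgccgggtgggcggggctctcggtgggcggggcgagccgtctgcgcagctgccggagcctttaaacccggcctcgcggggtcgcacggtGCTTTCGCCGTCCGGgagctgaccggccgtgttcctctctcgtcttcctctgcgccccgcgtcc

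These windows differed in base composition. The observed count of CpG dinucleotides over that expected from the C and G content (CpG ratio) was 1.18 in the Lias window, 0.994 at Hspd1, 0.981 at Ears2, 0.967 at Mrps6, 0.957 at Atm, 0.672 at Mrps12 and 0.486 at H2ac12. The histone window, with a GC content of 44.0%, was the poorest in CpG of the 7 and held both CCAAT and TATAAA on either strand. In the Atm window the marked start lies inside the gene's outermost base, at 53536671 against 53536828, and in the Ears2 window at 122067086 against 122067094. In the Hspd1 window the 50 capitals cover part of the stretch in which the genes overlap, because Hspe1 (first base 55088148) begins inside Hspd1 (first base 55088243).

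The strand of both genes was known for at least 1 joined pair in 838 of the 1112 intervals (75.4%). Strands came from the RefSeq promoter table, which held 16457 of the 20665 genes and none on chromosome 18. Among the 838 intervals, 682 (81.4%, Wilson interval 78.6 to 83.9%) joined 2 starts on opposite strands. Another 27 (3.22%) joined 2 starts on the same strand. A start and a 3' end on the same strand, the tandem arrangement, were joined in 108 (12.9%), a start and a 3' end on opposite strands of overlapping genes in 19 (2.27%), and 2 convergent 3' ends in 21 (2.51%). An interval can count under more than 1 arrangement, and some with ends of only 2 genes do. Ends of exactly 2 genes were held by 1095 intervals (98.5%), of 3 genes by 16, and of more by 1.

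The excess of starts has to be read against how often starts are accessible at all. An interval of any width covered 60.0% of the 16457 outermost starts and 6.28% of the 3' ends. Joining intervals covered 10.2% of the starts and 1.25% of the 3' ends. Since the outermost base of a gene can belong to a rare or predicted transcript, a gene can have an accessible promoter and still count as uncovered.

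To show how many gene pairs could have been joined, all neighbouring ends of different genes less than 2000 bp apart were collected. Of these 4351 pairs, 1158 (26.6%, Wilson interval 25.3 to 27.9%) shared a joining interval. Of the 971 divergent pairs of starts, 682 (70.2%, 67.3 to 73.0%) were joined and another 101 (10.4%) shared an interval of 2000 bp or more. Separate intervals covered the 2 starts in 39 divergent pairs (4.02%), a single start was covered in 88 (9.06%), and neither in 61 (6.28%). Of the 869 tandem pairs 108 (12.4%) were joined, and of the 1009 convergent pairs 21 (2.08%). Among convergent pairs 885 (87.7%) had neither 3' end covered. Where a tandem pair had a single covered end, that end was the start in 422 of 440 cases (95.9%).

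**Figure D1:**
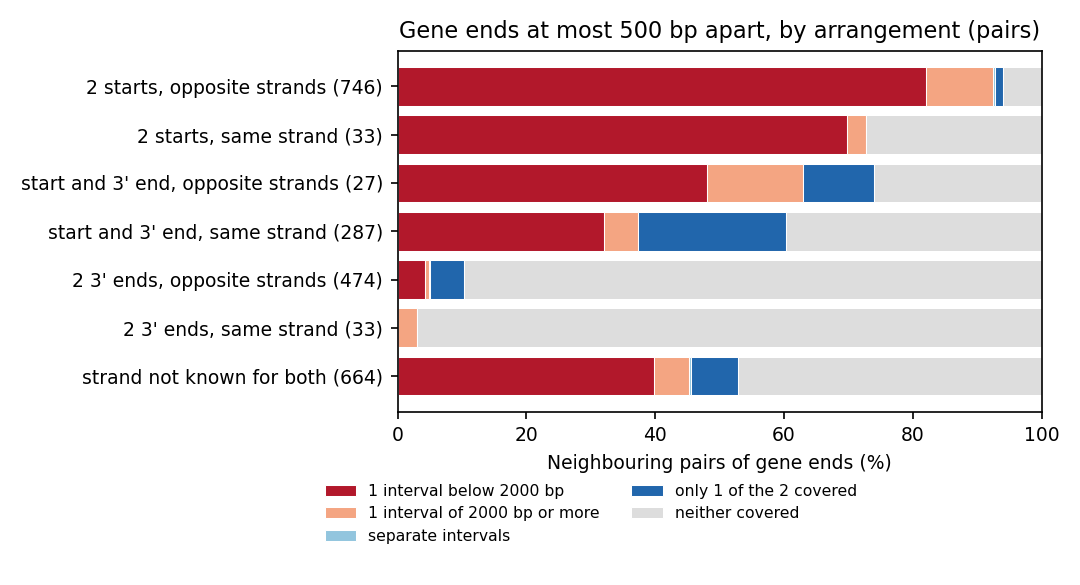
Share of neighbouring gene-end pairs at most 500 bp apart (x axis, %) by arrangement (rows, with the number of pairs) and by how intervals covered them (colours). Of the divergent pairs of starts 82.0% shared an interval below 2000 bp, against 32.1% of tandem pairs and 4.22% of convergent pairs.

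The shares differed by arrangement among close ends. Within 500 bp, 612 of 746 divergent pairs (82.0%, Wilson interval 79.1 to 84.6%) were joined, against 92 of 287 tandem pairs (32.1%, 26.9 to 37.7%) and 20 of 474 convergent pairs (4.22%, 2.75 to 6.43%). Another 78 of these divergent pairs lay in a single interval of 2000 bp or more. No test was made across pairs, because neighbouring pairs share genes and intervals. The distances within 500 bp were not alike, since 362 of the 746 divergent pairs but 76 of the 287 tandem pairs lay within 100 bp. Up to 100 bp apart, 306 of 362 divergent pairs (84.5%) and 26 of 76 tandem pairs (34.2%) were joined. The shares were closest from 101 to 200 bp, at 133 of 162 (82.1%, Wilson interval 75.5 to 87.2%) and 29 of 54 (53.7%, 40.6 to 66.3%). From 201 to 500 bp they were 173 of 222 (77.9%) and 37 of 157 (23.6%). The divergent share was 52.5% (63 of 120) from 501 to 1000 bp and 11.1% (7 of 63) from 1001 to 1500 bp. All 7 of the latter were pairs of genes whose 5' parts overlap. Distances here do not separate overlapping from non-overlapping divergent pairs. None of the 42 divergent pairs from 1501 to 1999 bp was joined by an interval below 2000 bp, where the width limit leaves little room. In that range 16 of the 42 had separate intervals. Over all distances, the 39 separately covered divergent pairs had a median of 1328 bp between starts and 492 bp of sequence between their intervals.

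**Figure D2:**
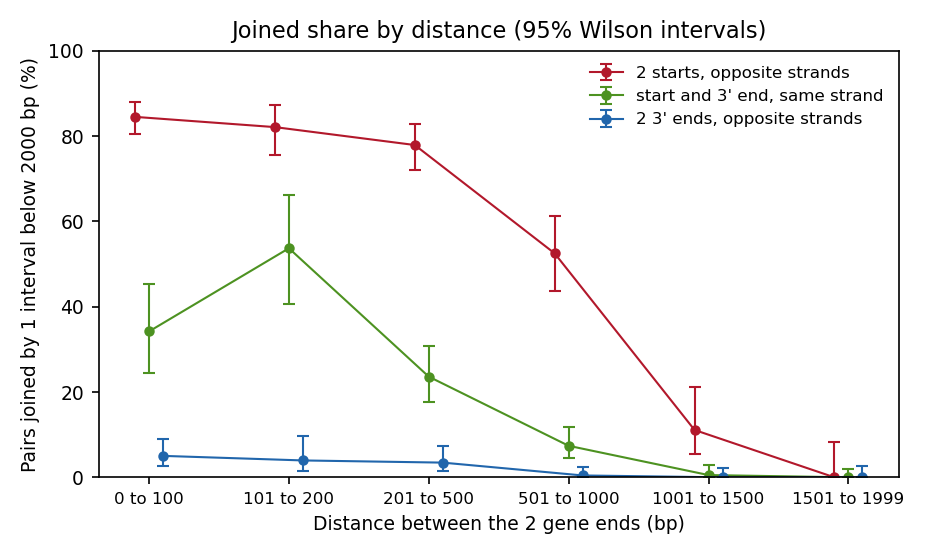
Share of gene-end pairs joined by an interval below 2000 bp (y axis, %, with 95% Wilson intervals) by the distance between the 2 ends (x axis, bp). Divergent starts stayed at or above 77.9% up to 500 bp and fell to 52.5% from 501 to 1000 bp, tandem pairs reached 53.7% from 101 to 200 bp, and convergent ends stayed at or below 5.03%.

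Joined starts were mostly close. The 682 joined divergent pairs had a median distance of 124.5 bp (quartiles 49.2 and 275 bp). In 306 of them (44.9%) the starts were at most 100 bp apart, and in 612 (89.7%) at most 500 bp. In 245 pairs (35.9%) the 5' parts of the genes overlapped, with a median of 238 bp between the starts. In the other 437 the genes did not overlap, some lying on adjacent bases, and the median distance of the starts was 91.0 bp. Tandem joins spanned a median of 197 bp, convergent joins 114 bp, and same-strand starts 0 bp, since 14 of those 27 pairs share their first base. The shortest distance above 0 was 1 bp. It was found in 7 intervals, among them Ppil6/Smpd2, Sgsh/Slc26a11, Lrrc14/Recql4, Capza1/St7l and Ears2/Ubfd1 (strand not known for both genes at Sgsh and Lrrc14). Capza1 encodes a subunit that caps actin filaments, Recql4 a DNA helicase, and Ears2 the mitochondrial glutamyl-tRNA synthetase.

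The longest span was at Gpr161/Tiprl on chromosome 1, where the starts lay 1475 bp apart in an interval of 1726 bp (165281168 to 165282893). It was followed by A430057M04Rik/Comtd1 (1332 bp, strand not known for both) and by Nectin2/Tomm40, a tandem pair 1202 bp apart in 1653 bp on chromosome 7. Tomm40 encodes the pore of the mitochondrial import complex. Dnajc7/Nkiras2 (1111 bp) and Gmps/Slc33a1 (1100 bp) were the widest-spaced divergent pairs after Gpr161/Tiprl without a predicted gene. In all joined divergent pairs more than 1000 bp apart, these included, the 5' parts of the genes overlapped. Joined divergent pairs without such overlap had starts at most 1000 bp apart. Gmps encodes an enzyme of guanine nucleotide synthesis. The others of the 10 longest spans were LOC115489489/Ncoa3 (1144 bp), Gm51460/Phrf1 (1139 bp), Epha5/Gm42163 (1080 bp), Gm30698/Rnf146 (1046 bp) and C8g/Fbxw5 (1027 bp). A predicted gene took part in 4 of these.

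Joining intervals were wide. Their median width was 1381.5 bp (quartiles 1153 and 1631.8 bp, lowest 223 bp), against 1153 bp for the 10221 intervals of the same size range that cover ends of exactly 1 gene and 322 bp for the 301896 that cover none. A wider interval can reach more ends by its size alone, and the rule caps the width, so these medians are a description. Divergent joins had a median of 1413 bp, same-strand starts 1455 bp, tandem joins 1320 bp and convergent joins 927 bp. Single-gene intervals over a start had a median of 1196 bp and those over a 3' end 623.5 bp.

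**Figure D3:**
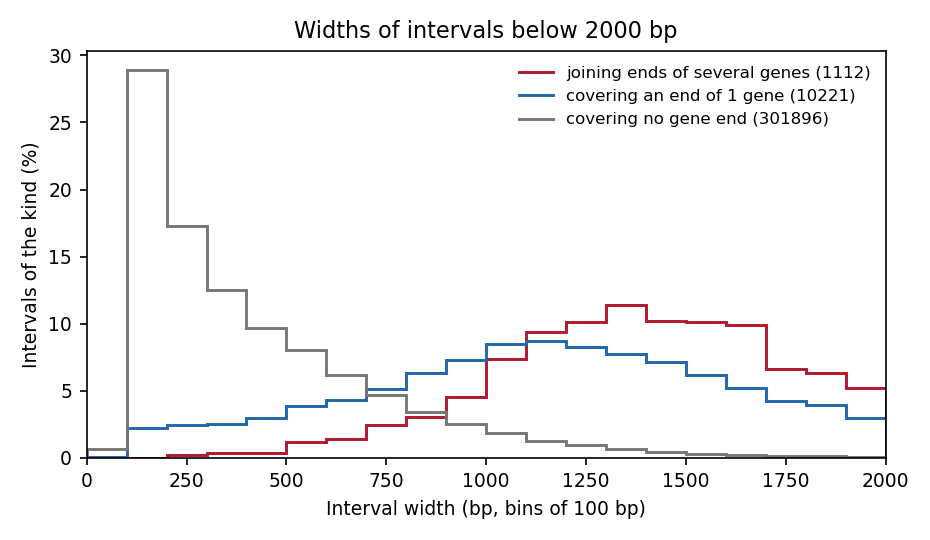
Widths of intervals below 2000 bp (x axis, bp, in bins of 100 bp) as the share of intervals of each kind (y axis, %). Joining intervals have a median of 1381.5 bp, single-gene intervals 1153 bp and intervals away from gene ends 322 bp.

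Divergent pairs up to 100 bp apart lay in intervals of 1361.5 bp (median). The median width was 1479 bp for pairs 101 to 200 bp apart, 1426 bp for 201 to 500 bp and 1513 bp for 501 to 1000 bp. For the 7 pairs farther apart it was 1665 bp. The sequence beyond the 2 starts had a median of 1331.5, 1321, 1096, 808 and 563 bp in the same order. The rule limits both values, since a member must span both starts within less than 2000 bp. Intervals of 2000 bp or more held 34 further pairs up to 100 bp apart, beside 306 members, but 13 beside 63 from 501 to 1000 bp and 9 beside 7 from 1001 to 1500 bp. Over the 422 joined divergent pairs with non-overlapping genes and no further end, the interval's centre lay a median of 130.5 bp from the midpoint of the starts. The stretch between the starts took up 6.84% of the interval (median). On the more covered side the interval reached 773 bp into the gene and on the less covered side 460.5 bp (medians). A single-gene start interval reached 736.5 bp into its gene and 385 bp upstream (medians over 7244). The value of 773 bp takes the larger reach of each pair, so it is not like for like with 736.5 bp. With sides taken by chromosome position instead, the median reach was below 736.5 bp on the lower and on the upper side.

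**Figure D4:**
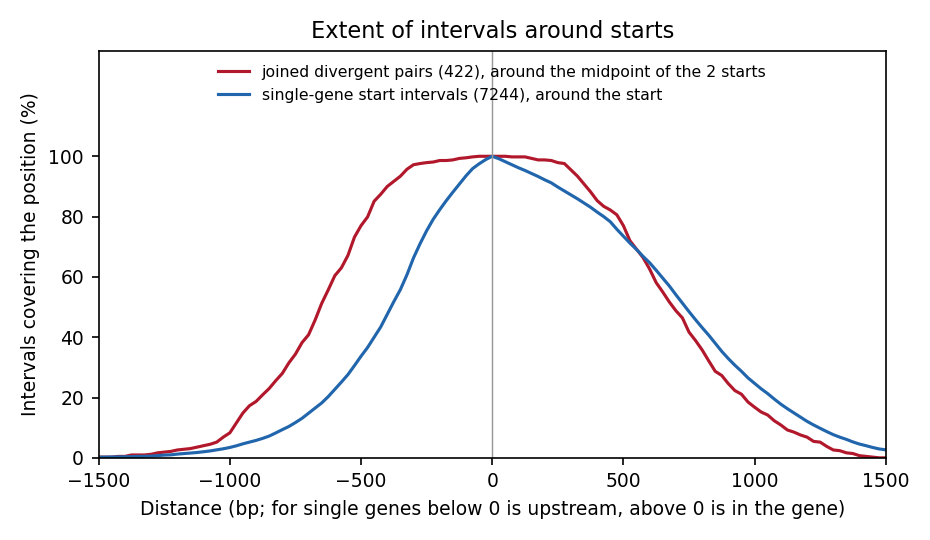
Share of intervals covering each position (y axis, %) around the midpoint of 2 joined divergent starts (422 pairs) and around the start in single-gene intervals (7244), by distance (x axis, bp). At 500 bp on either side 77.0% of the joined divergent intervals were present, while single-gene intervals reached 33.7% at 500 bp upstream and 73.5% at 500 bp inside the gene.

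The edge of the rule fell among like intervals. Just inside lay Fhl4/Tmem263 (1999 bp), AU022252/P3h1 (1998 bp) and Rbbp4/Zbtb8os (1996 bp), and just outside Cul4a/Pcid2 (2000 bp), Hras/Lrrc56 (2001 bp) and Gng5/Spata1 (2002 bp). In all, 168 wider intervals also held ends of several genes. The other intervals among the 10 widest members were Gps1/Rfng (1994 bp), Amigo2/Pced1b (1993 bp), Cnpy4/Taf6 and Cope/Ddx49 (1992 bp each), Frs3/Prickle4/Tomm6 (1991 bp), and Hdlbp/Septin2 and Gm46752/Ptprj (1988 bp each). All 10 held a divergent pair of starts. Rbbp4 encodes a histone-binding chromatin subunit, Taf6 a subunit of the general factor TFIID, and Cope a coat protein of Golgi vesicles.

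The narrowest members were of mixed arrangement. Csdc2/Pmm1 shared 223 bp on chromosome 15 (81950896 to 81951118, strand not known for both). The next were the brachyury gene T with a predicted gene (281 bp, tandem), Bhmt2/Dmgdh (306 bp, divergent), Hpca/Tmem54 (317 bp, convergent) and Aebp1/Pold2 (364 bp, convergent). Bhmt2 and Dmgdh encode enzymes of methyl-group metabolism. Evi2/Evi2a (397 bp, strand not known for both) and the divergent imprinted pair Peg3/Usp29 (451 bp, chromosome 7, 6730187 to 6730637) came after these. Cenpj/Parp4 (464 bp, divergent), Gnmt/Pex6 (485 bp, convergent) and Bloc1s1/Rdh5 (488 bp, tandem) completed the 10.

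Head-to-head pairs known from textbooks were nearly all joined. Of 18 such pairs, 15 shared a joining interval, 2 a wider one and 1 had separate intervals, and none had an uncovered end. The strand of both genes was not known here for 7 of the 18. The pairs were listed because they are known to be divergent, so this count describes them and does not test the rule. Genes of DNA repair and replication were prominent among them by choice of the list. Atm, the kinase that senses DNA breaks (gene ID 11920), and Npat, a histone gene coactivator (244879), had starts 61 bp apart in an interval of 1848 bp on chromosome 9 (53536023 to 53537870). Brca1 and Nbr1 lay 152 bp apart in 1663 bp on chromosome 11 (101551575 to 101553237). The helicase gene Wrn and Purg lay 76 bp apart in 1835 bp. Prkdc, the DNA-dependent protein kinase, and the replicative helicase subunit Mcm4 lay 44 bp apart in 1456 bp on chromosome 16 (15636737 to 15638192).

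Metabolic and chaperone pairs of the same list behaved alike. Hspd1 and Hspe1 (gene IDs 15510 and 15528), which encode the mitochondrial chaperonin and its cofactor, had starts 95 bp apart in an interval of 1609 bp on chromosome 1 (55087013 to 55088621). Ppat and Paics, for the first and middle steps of purine synthesis, lay 276 bp apart in 1453 bp, and Surf1 and Surf2 238 bp apart in 1640 bp. Sars2, the mitochondrial seryl-tRNA synthetase, and Mrps12, a mitochondrial ribosomal protein, lay 136 bp apart in 1665 bp, and the antigen presentation genes Tap1 and Psmb9 226 bp apart in 1510 bp. Pdcd10/Serpini1 (641 bp in 1599 bp) and Gart/Son (852 bp in 1675 bp) had the widest spacing of the 15.

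The basement membrane collagens split across the width limit. Col4a3 and Col4a4 lay 113 bp apart in an interval of 1100 bp on chromosome 1 (82586518 to 82587617). Col4a1 and Col4a2, which encode the main chains of type IV collagen, lay 84 bp apart in an interval of 2547 bp on chromosome 8 (11311640 to 11314186), which is above the limit. The other wider interval, 2260 bp, lay at Ranbp1/Trmt2a, whose starts are 153 bp apart. Tbp and Psmb1, 1612 bp apart, had separate intervals of 924 bp and 692 bp.

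Genes of mitochondrial translation and of DNA and RNA polymerisation had ends in joining intervals more often than protein-coding genes at large (10.8%). Among mitochondrial ribosomal proteins 32 of 78 (41.0%, Wilson interval 30.8 to 52.1%) did, among RNA polymerase subunits 11 of 31 (35.5%, 21.1 to 53.1%), among DNA replication and repair genes 28 of 80 (35.0%, 25.5 to 45.9%) and among respiratory chain subunits 28 of 85 (32.9%, 23.9 to 43.5%). Aminoacyl-tRNA synthetases stood at 12 of 37 (32.4%) and chaperones of the chaperonin and heat shock families at 16 of 67 (23.9%). Genes of these groups also had an interval over an end more often than the 62.2% of all genes. That share ran from 88.1% (chaperones) to 100% (RNA polymerase subunits), with 91.0% for mitochondrial ribosomal proteins. These lists were made by symbol, partly overlap the textbook pairs, and were given no enrichment test.

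Close neighbours were also more common in these groups. Of the mitochondrial ribosomal protein genes 50 of 78 (64.1%) had another gene's end within 2000 bp, against 33.2% of all genes, and 32 of those 50 (64.0%) lay in a joining interval, against 32.6%. For DNA replication and repair genes the shares were 67.5% and 51.9%, and for cytoplasmic ribosomal proteins 50.0% and 35.0%. The last group and the proteasome subunits had 14 of 80 (17.5%) and 6 of 39 (15.4%) genes in joining intervals, and their Wilson intervals (10.7 to 27.3% and 7.25 to 29.7%) included the 10.8% of all genes.

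**Figure D5:**
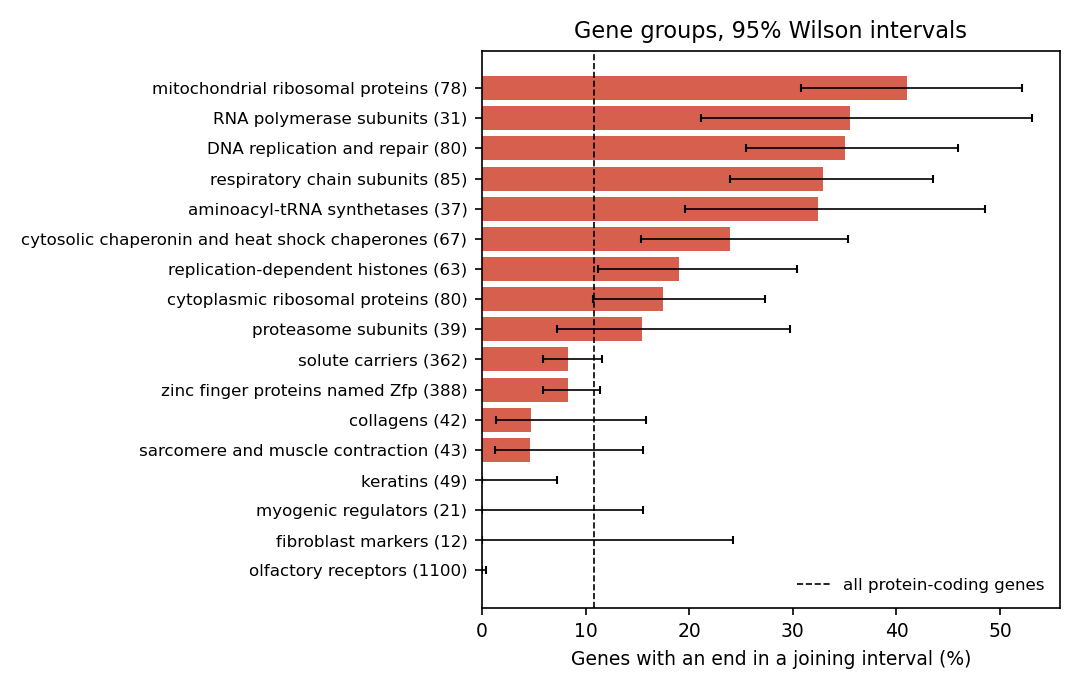
Share of genes with an end in a joining interval (x axis, %) for groups of genes defined by symbol (rows, with the number of genes), with 95% Wilson intervals as whiskers and all protein-coding genes as the dashed line at 10.8%. Mitochondrial ribosomal proteins reached 41.0%, and keratins, myogenic regulators, fibroblast markers and olfactory receptors stood at 0.

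Partners in these groups came from many functions. Mitochondrial ribosomal protein genes shared intervals with Ska3 (Mrpl57, starts 63 bp apart in 1744 bp), a kinetochore gene, with Rab6a (Mrpl48, 726 bp apart in 1667 bp), a Golgi trafficking GTPase, and with Pnpla7 (Mrpl41, 892 bp apart in 1768 bp). Of the respiratory chain, Ndufb1 faced the mRNA cleavage factor gene Cpsf2 (21 bp, 1924 bp), Atp5h faced Kctd2 (175 bp, 1841 bp), Atp5md faced Pdcd11 (88 bp, 1702 bp) and Ndufa11 faced Vmac (63 bp, 1686 bp), where the values are the distance of the starts and the width. Fen1, the flap nuclease of replication, lay 191 bp from Tmem258 in 1906 bp on chromosome 19, and the helicase subunit Mcm7 lay 90 bp from Ap4m1 in 1746 bp on chromosome 5.

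The same held for the transcription and translation machinery. Polr1d lay 143 bp from Lnx2 in 1794 bp, Polr2i 123 bp from Tbcb in 1789 bp, and Polr1a 280 bp from Ptcd3 in 1732 bp, all divergent, and Polr2b lay 71 bp from Noa1 in 1828 bp. The lysyl-tRNA synthetase gene Kars lay 5 bp from Terf2ip, a telomere gene, in 1555 bp. Ears2 shared 1683 bp with Ubfd1. Ribosomal protein genes met Lias, the lipoic acid synthase (Rpl9, 66 bp, 1522 bp), and Med22, a Mediator subunit (Rpl7a, 43 bp, 1519 bp). They also met Nkiras1 (Rpl15, 150 bp, 1605 bp) and Clhc1 (Rps27a, 90 bp, 1655 bp). At Polr2b, Rpl15 and Rps27a the strand was not known for both genes, so the distance is that of gene ends.

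Chaperone genes met other chaperones in 2 intervals, Hspd1/Hspe1 and Hspa1a/Hspa1l. The widest intervals of the group were others. Cct3 and Tsacc had starts 136 bp apart in 1946 bp, Dnajb4 and Fubp1 10 bp apart in 1929 bp, and Cct7 and Pradc1 482 bp apart in 1688 bp. Among proteasome genes, Psmb3 lay 1000 bp from Pcgf2 in 1448 bp. Psmc2 lay 11 bp from Dnajc2 in 1165 bp and Psma4 shared 1112 bp with AY074887 (strand not known for both genes in either pair). Zinc finger genes named Zfp had 32 of 388 (8.25%, Wilson interval 5.90 to 11.4%) in joining intervals. An example is Zfp526, 765 bp from Dedd2 in 1928 bp. Solute carriers had 30 of 362 (8.29%, 5.87 to 11.6%), for example Slc30a7, a zinc transporter, 35 bp from Extl2 in 1812 bp. Both Wilson intervals include the 10.8% of all genes.

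Muscle genes and other tissue-restricted genes are described beside the 10.8% of all genes. None of the 21 myogenic regulators had an end in a joining interval (Wilson interval 0 to 15.5%), and 2 of the 21 had another gene's end within 2000 bp. Of 43 genes of the sarcomere and contraction, 2 were members (1.28 to 15.5%). Both intervals include the share of all genes. Mylpf, the regulatory light chain of fast muscle myosin, lay 380 bp from Tbc1d10b in a divergent pair with an interval of 1452 bp on chromosome 7 (127208086 to 127209537). Actn3, the alpha-actinin of fast fibres, shared 1437 bp with Zdhhc24 on chromosome 19 (4877848 to 4879284, 759 bp apart, strand not known for both). No fibroblast marker among 12 was a member (0 to 24.2%), and 1 of the 12 had a close neighbour. None of 1100 olfactory receptor genes was a member, which allows a share of up to 0.348% (upper Wilson bound), and 19 of them (1.73%) had a close neighbour at all. None of 49 keratin genes was a member (0 to 7.27%), and 8 had a close neighbour. Of 42 collagen genes, Col4a3 and Col4a4 were the members (1.32 to 15.8%). Of these 6 groups, the interval lay below 10.8% for the keratins and the olfactory receptors. Few genes of these 2 groups had an accessible interval over an end at all. The shares were 22.4% (11 keratin genes) and 1.36% (15 olfactory receptor genes), against 62.2% of all genes.

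Histone genes of the replication-dependent class formed pairs with each other. They had 12 of 63 genes in joining intervals, and all 12 lay in 6 pairs of an H2A and an H2B gene. The Wilson interval of this share lay above the 10.8% of all genes. The share with another gene's end within 2000 bp was also above the 33.2% of all genes. Of the histone genes with such a neighbour, however, the share in a joining interval was below the 32.6% of all genes. The share with an interval over an end was near the 62.2% of all genes. H2ac13/H2bc13 shared 1788 bp (starts 229 bp apart), H2ac6/H2bc4 1404 bp (240 bp), H2ac12/H2bc12 1398 bp (178 bp) and H2ac8/H2bc8 1076 bp (180 bp), all on chromosome 13, and H2ac7/H2bc7 and H2ac11/H2bc11 were the others. The strand of both genes was not known for H2ac6/H2bc4. In contrast H2ac15/H2bc15, H2ac22/H2bc22, H2ac23/H2bc23 and H2ac24/H4bc24, also divergent, had no interval at either start and lay in the same stretch of chromosome 13 without any interval. H2ac1/H2bc1 had none either, with the nearest interval 1185 bp away. Histone genes are near-identical copies, and the sources used here do not say how the authors treated reads matching several copies, so these values are uncertain.

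Close starts without any interval were few. Of the 746 divergent pairs at most 500 bp apart, 45 (6.03%) had neither start covered. The closest were Gm26650/Gm10410 (10 bp), Entpd4b/LOC115488278 (16 bp), Psma7/Ss18l1 (19 bp), Alyref/Anapc11 (22 bp), Smarcd2/Tcam1 (22 bp), Ccpg1/Ccpg1os (26 bp), Nmt1/Dcakd (26 bp), Sirt6/Ankrd24 (29 bp), Triml1/Triml2 (31 bp) and Best1/Rab3il1 (36 bp). Several of these genes serve most cells, among them the proteasome gene Psma7, the mRNA export gene Alyref with the anaphase-promoting complex gene Anapc11, and the chromatin remodelling gene Smarcd2. The nearest interval lay 16824 bp from Psma7/Ss18l1, 49164 bp from Alyref/Anapc11, 20925 bp from Smarcd2/Tcam1, 22930 bp from Nmt1/Dcakd and 26790 bp from Sirt6/Ankrd24.

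These 45 pairs fell into different surroundings. An interval lay within 1 kb of the pair in 19 (42.2%), and none lay within 10 kb in 15 (33.3%), which occupied 12 separate stretches free of intervals. Promoters of the 15 pairs without an interval within 10 kb had a median CpG ratio of 0.900 (30 windows, quartiles 0.758 and 0.992). Promoters of the other 30 pairs had a median of 0.510 (60 windows). The stretch around Alyref/Anapc11 on chromosome 11 measured 133.0 kb and that around Sirt6/Ankrd24 on chromosome 10 measured 403.8 kb. The cause was not tested.

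Joined divergent promoters were rich in CpG, a property the rule did not use. Over the 1364 windows of joined divergent starts the CpG ratio had a median of 0.841 (quartiles 0.712 and 0.967). It was 0.727 over 7266 starts in single-gene intervals and 0.213 over 6577 starts in no interval. The ratio exceeded 0.6 in 86.6% of joined divergent windows, 66.6% of single-gene windows and 17.7% of uncovered ones. The median GC content was 62.3%, 60.7% and 48.3% in the same order. Pairs at most 100 bp apart had a median ratio of 0.864 (612 windows) and those more than 500 bp apart 0.755 (140 windows). Same-strand joined starts had 0.825 and starts in tandem members 0.736. The windows of a close pair share bases, so no test was made across them.

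Motif letters were counted on both strands of each window. CCGGAAGT, the site read by ETS factors such as GABPA, occurred in 14.3% of joined divergent windows, 6.58% of single-gene windows and 5.44% of all 16457 windows. The palindromic motif of NRF1, a regulator of nuclear genes for mitochondria, occurred in 16.1%, 9.15% and 6.88%. AAGATGGC, the core of the YY1 site, occurred in 8.06%, 3.61% and 3.21%, and the cAMP response element TGACGTCA in 4.55%, 3.21% and 2.40%. The core of the ZNF143 motif occurred in 1.10%, 0.729% and 0.468%. In the 122 windows of close divergent pairs with neither start covered, CCGGAAGT occurred in 9.02% (Wilson interval 5.11 to 15.4%). There the NRF1 motif occurred in 7.38% (3.93 to 13.4%), AAGATGGC in 4.10% (1.76 to 9.24%) and TGACGTCA in 0 (0 to 3.05%). The ZNF143 core stood at 1.64% (0.451 to 5.78%). The joined divergent share lay above these intervals for the NRF1 motif and TGACGTCA, and inside them for the others.

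Other motifs were similar to or less frequent than in single-gene windows. TATAAA, the TATA box, occurred in 4.55% of joined divergent windows, 7.93% of single-gene windows, 23.2% of uncovered windows and 13.5% of all. The AP-1 site TGANTCA occurred in 3.01%, 6.45%, 9.53% and 7.12% in that order, the E-box CAGCTG, read by myogenic factors, in 11.1%, 16.5%, 14.8% and 15.2%, and GGAATG, the TEAD site, in 10.3%, 12.2%, 15.2% and 13.2%. The GC box GGGCGG was found in 64.5% of joined divergent and 63.6% of single-gene windows, CCAAT in 41.1% and 38.2%, and the E-box CACGTG in 10.1% and 9.96%. A match gives letters in a window of 300 bases and is not a bound site, and GC-rich motifs are met more often in GC-rich windows. Among the printed windows, those of Hspd1 and Atm hold the NRF1 motif, that of Mrps12 holds AAGATGGC, and those of Atm and H2ac12 hold TATAAA.

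Joins of a start with another gene's tail were next in number. The following examples of other arrangements were picked after their values were seen. Lamb2, a laminin chain gene, ended 77 bp before the start of Usp19, a deubiquitinase gene, in an interval of 1039 bp on chromosome 9 (108490321 to 108491359). Shc1, a signalling adaptor gene, ended 85 bp before Pygo2, a cofactor of beta-catenin, in 973 bp on chromosome 3 (89429891 to 89430863). Men1, the menin tumour suppressor gene, ended 96 bp before Map4k2 in 1429 bp on chromosome 19. Zmynd10 ended 113 bp before Rassf1 in 1236 bp on chromosome 9. The start of Cad, the enzyme that begins pyrimidine synthesis, overlapped the tail of Atraid by 14 bp in 1662 bp on chromosome 5.

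Convergent joins had the lowest median width of the arrangements, 927 bp, against 623.5 bp for single-gene intervals over a 3' end. The 21 convergent intervals ranged from 317 to 1743 bp. Treh and Phldb1 ended 3 bp apart in 1358 bp on chromosome 9. Pold2, a DNA polymerase subunit gene, and Aebp1 overlapped by 69 bp in an interval of 364 bp on chromosome 11 (5871895 to 5872258). Map4, which encodes a microtubule-binding protein, and Dhx30 ended 365 bp apart in 927 bp, and the small GTPase gene Rhoc and Mov10 369 bp apart in 680 bp. Selenom and the smooth muscle gene Smtn ended 171 bp apart in 680 bp. The widest-spaced convergent join, 564 bp in 1429 bp on chromosome 14 (55767656 to 55769084), held the tails of Ltb4r1 and of Adcy4, which encodes an adenylate cyclase.

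Of the 27 same-strand pairs of starts, 14 lay on the same base, 20 within 100 bp, and 4 from 501 to 1000 bp apart. Ak6/Taf9, Ang/Rnase4, Cers1/Gdf1, Cpne1/Rbm12 and Htd2/Rpp14 share their first base. Slc5a3, a myo-inositol transporter gene, and Mrps6 begin 14 bp apart in an interval of 1939 bp on chromosome 16 (92057587 to 92059525). At the other end of the range, Naa80 and Hyal3 begin 627 bp apart and Zbed6 and Zc3h11a 514 bp apart.

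The interval with the most genes stood apart. On chromosome 18 an interval of 1848 bp (37841394 to 37843241) held the upper end of 24 genes, 21 of them gamma protocadherins named Pcdhg and the others predicted genes. Gamma protocadherins are adhesion proteins whose variable first exons are spliced to shared last exons, and their annotated ends fell on 4 bases from 37841863 to 37841873. This interval gave 23 of the 1158 joined pairs, and none of them had a known strand. Of the 16 intervals with 3 genes, Frs3/Prickle4/Tomm6 (1991 bp), Adam15/Dcst1/Dcst2 (1970 bp), 1110065P20Rik/Mtf1/Yrdc (1924 bp), Anxa9/Cers2 with a predicted gene (1891 bp) and Alg3/Eef1akmt4/Eef1akmt4-ece2 (1855 bp) were the widest. Borcs8/Rfxank with a predicted gene (1725 bp), Shld3/Trappc13/Trim23 (1631 bp), Atf5/Il4i1b/Nup62 (1576 bp) and Eif4enif1/Sfi1 with a predicted gene (1550 bp) followed. Of all 16, 13 held a divergent pair of starts, Adam15/Dcst1/Dcst2 held none, and 2 had no pair of known strands.

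The members were spread over all 19 chromosomes. Per 100 protein-coding genes they numbered from 3.64 on chromosome 6 to 7.23 on chromosome 19. The share of close pairs that was joined ranged from 21.4% on chromosome 4 to 33.1% on chromosome 13, with 42.3% on chromosome 18, where the protocadherin interval gave 23 of 44 joined pairs.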

How the data were processed

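The authors annotated their consensus peaks with HOMER (annotatePeaks), per the file headers, which name GRCm38.p6 and GENCODE vM23. BWA, MACS2 and DESeq2 appear in the submitters' processing notes without versions or roles. For peak thresholds, filters and joining, the settings are not given in the sources used here. Every deposited peak score is 0, so the score was not used. Interval positions (1-based) were the only measurement. A joined interval can merge peaks of several libraries.

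Gene ends came from the RefSeq gene table and strands and promoter windows from the RefSeq promoter table, both GRCm38.p6. For each gene the window nearest its outermost start was used (59.8% lay exactly there). Neighbouring ends of different genes less than 2000 bp apart were close pairs. Predicted genes are symbols of Gm or LOC with digits or ending in Rik. Shares have Wilson intervals for counting error. No test was made. The pairing code was tested on simulated data.

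Named genes were the textbook pairs, the 10 members with the most genes, the widest, the narrowest and the largest distances, the 5 smallest, the 10 closest uncovered divergent pairs and up to 4 members per list by width. Some of these are not reported here. The members and 21 lists were chosen with earlier results of these data known. Python 3.11.15 was used with scipy 1.17.1, matplotlib 3.10.9, pandas 2.3.3 and numpy 2.4.6.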

Additional observations from a re-analysis of the deposited data

How the results depend on the processing

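Of 60 values recomputed under other settings, 37 stayed within the 95% interval of the main value (counts within 1.5 times) and 23 moved. The main values were 1112 joining intervals, a median width of 1381.5 bp, a median distance of 130 bp between joined ends, 83.5% of intervals of known strand with a start-to-start pair, and 26.6% of all close pairs and 69.9% of close start-to-start pairs joined. With non-coding genes included, the number was 2370, the width 1348 bp, the start-to-start share 89.0% and the joined share 22.4%. With only gene pairs that do not overlap, the number was 709, the start-to-start share 80.5% and the joined share 24.4%. With no width limit the median width was 1454 bp, the joined shares were 30.8% and 80.0% for start pairs, and the collagens had 4 members in place of 2. With a width limit of 1000 bp there were 150 intervals of 826 bp (median) with 103 bp between ends and 67.3% start-to-start. With ends up to 100 bp outside counted, the width was 1351 bp, the distance 147 bp, the start-to-start share 75.1% and the joined share 30.4%. Close pairs under 1000 bp gave joined shares of 36.5% and 77.5% for start pairs, and those under 500 bp gave 45.3% and 81.5%. Removing predicted genes, requiring 50 bp inside and adding chromosome X moved none of the values computed under them beyond its interval. The settings for windows at the outermost start, and for lists and joined shares with no width limit, were chosen after seeing the data. No paired analysis was possible because the table has no column per library, and for the same reason no library could be left out.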

Other observations

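Symbols of joined divergent pairs seldom began with the same 3 letters. They did in 21 of the 682 pairs (3.08%), against 17 of the 188 close divergent pairs not joined by any interval (9.04%). Among these 188, the 61 with neither start covered had 9 (14.8%). Pairs of an H2A and an H2B gene differ in the third letter and do not count as matching. Distances were not matched, and the 188 include pairs 1501 to 1999 bp apart. The joined pairs with matching letters included partners of the same complex or pathway. Hadha and Hadhb, the subunits of the mitochondrial trifunctional protein of fatty acid oxidation, had starts 273 bp apart in 1902 bp on chromosome 5. Zic1 and Zic4, zinc finger regulators of development, lay 137 bp apart in 1930 bp on chromosome 9. The oxidase genes Duox1 and Duox2 each shared an interval with the gene of their maturation factor, Duoxa1 (753 bp apart in 1507 bp) and Duoxa2 (160 bp apart in 1247 bp). Mrpl46 and Mrps11, for both subunits of the mitochondrial ribosome, lay 42 bp apart in 1302 bp, and the heat shock genes Hspa1a and Hspa1l 547 bp apart in 1158 bp. They were chosen for mention with their values known.

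Non-coding genes lay in few members. An end of a non-coding gene was also covered by 37 of the 1112 joining intervals (3.33%, Wilson interval 2.42 to 4.55%), against 1105 of the 10221 single-gene intervals (10.8%, 10.2 to 11.4%). For lncRNA genes alone the shares were 2.34% and 9.59%. Hairpins of 4 microRNA genes overlapped members. Mir191 lay in the interval of Dalrd3/Ndufaf3 on chromosome 9 (108566450 to 108568422), Mir7009 in that of 1810062G17Rik/Anxa5, Mir1945 in that of Gspt1 with a predicted gene, and Gm38670 in that of Hspb6/Proser3.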
